A study of Homo sapiens with 20 samples.

Results

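In FRA1 Cut&Run of A375 and 1205Lu cells, 12121 of 54563 consensus peaks (22.2%) were strong in A375 cells and did not pass the enrichment limit in 1205Lu cells. They were chosen by their own read counts. Each was under 2000 bp wide. Each of the 3 A375 FRA1 libraries had to hold 10 counts or more and reach 8 times the A375 IgG count plus 1. In at least 1 of the 3 1205Lu FRA1 libraries it had fewer than 10 counts or less than 4 times the 1205Lu IgG count plus 1. Another 1695 peaks met the A375 limit and were also enriched in 1205Lu cells, and 1410 peaks were enriched in 1205Lu cells and fell below a limit of 4 times IgG in A375 cells.

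A375 and 1205Lu are established human melanoma cell lines. Cut&Run was performed on both lines, with an antibody against FRA1 in 3 libraries per line and with IgG in 1 library per line. RNA-seq was performed on 3 samples per group of each line transfected with non-targeting siRNAs (si-NT) or siRNAs against FRA1 (si-FRA1), and no group carried another labelled agent. The labels give replicate numbers without saying whether the replicates were separate cultures, so the p-values measure the spread between these samples, which may be technical. Each line is a single model of its kind, and a difference between the lines is a difference between these 2 lines.

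FRA1, encoded by FOSL1, is a member of the FOS family. It does not form homodimers and binds DNA as a heterodimer with a JUN protein, as the transcription factor AP-1. The dimer recognizes a short palindrome, and many AP-1 sites lie in enhancers far from transcription starts. AP-1 acts downstream of the RAS, RAF and ERK kinases that are often mutated in melanoma, and it is known for its part in invasion, wound responses and dedifferentiated tumor cell states.

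To show what these regions look like, sequence was read from GRCh38 around an AP-1 match, the 7 letters TGACTCA or their reverse complement. The 8 strongest members and the 8 strongest members with fewer than 10 counts in every 1205Lu FRA1 library were ranked by mean A375 signal, and the first 4 of each were taken. The short windows at the centres of the resulting 7 peaks held no AP-1 match, so those shown are centred on the match nearest to the peak centre, a choice made after those centres were seen. The peak in an intron of APBB2 (chr4:41160092-41161356) had no match at all. Capitals mark the AP-1 match.
PIK3R1 distal, chr5:68334048-68334148: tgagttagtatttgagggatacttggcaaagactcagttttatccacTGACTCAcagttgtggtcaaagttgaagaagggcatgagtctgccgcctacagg
CDH5 intron, chr16:66382525-66382625: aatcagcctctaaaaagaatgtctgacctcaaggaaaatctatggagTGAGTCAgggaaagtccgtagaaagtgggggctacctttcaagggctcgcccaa
TGFB2 distal, chr1:218480795-218480895: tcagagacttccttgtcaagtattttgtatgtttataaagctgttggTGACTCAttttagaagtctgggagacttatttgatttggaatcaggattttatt
LINC02218 distal, chr5:17378679-17378779: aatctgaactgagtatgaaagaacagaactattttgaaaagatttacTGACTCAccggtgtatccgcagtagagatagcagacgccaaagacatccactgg
CPA3 distal, chr3:148902265-148902365: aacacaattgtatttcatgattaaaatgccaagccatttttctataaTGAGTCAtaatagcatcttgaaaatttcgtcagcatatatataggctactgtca
TGFB2 far distal, chr1:218705476-218705576: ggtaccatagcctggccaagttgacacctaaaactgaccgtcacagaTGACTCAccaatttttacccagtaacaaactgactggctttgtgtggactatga

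The match lay 136 bp from the centre of the PIK3R1 peak, 176 bp in CDH5, 114 bp and 679 bp in the near and far TGFB2 peaks, 617 bp in LINC02218 and 302 bp in CPA3. A second set shows members at the promoters of genes named below for their mRNA, with a match within 100 bp of the peak centre. All sequences are on the plus strand of the reference.
KISS1 promoter, chr1:204198841-204198941: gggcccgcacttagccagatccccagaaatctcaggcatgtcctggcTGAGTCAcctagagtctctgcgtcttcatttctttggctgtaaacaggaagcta
CPA4 promoter, chr7:130293066-130293166: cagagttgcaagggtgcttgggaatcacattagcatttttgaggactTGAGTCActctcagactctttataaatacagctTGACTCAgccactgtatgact
FRY promoter, chr13:31945640-31945740: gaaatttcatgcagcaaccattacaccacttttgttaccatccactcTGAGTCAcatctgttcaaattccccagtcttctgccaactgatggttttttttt
IRF1 promoter, chr5:132510188-132510288: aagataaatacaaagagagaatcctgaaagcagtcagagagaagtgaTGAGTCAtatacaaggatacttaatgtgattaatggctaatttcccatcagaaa
PCDH15 promoter, chr10:53904932-53905032: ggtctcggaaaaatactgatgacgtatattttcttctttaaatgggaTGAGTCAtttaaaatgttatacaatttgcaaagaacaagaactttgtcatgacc

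The reads in peaks set how these regions were chosen. The A375 FRA1 libraries held 3354095, 5316527 and 4256577 reads in consensus peaks, against 383994 for A375 IgG. The 1205Lu FRA1 libraries held 583750, 897407 and 781542, against 314569 for 1205Lu IgG. The study's methods state 1 range of read pairs for all Cut&Run samples, so reads in peaks are not the sequencing depth, and the number sequenced in each library is not given in the sources used here. The members held a median of 90, 140 and 112 counts in the A375 FRA1 libraries and 6 in A375 IgG. In 1205Lu cells the median was 6 in each FRA1 library and 6 in IgG. These counts follow from the rule and were not tested.

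**Figure D1:**
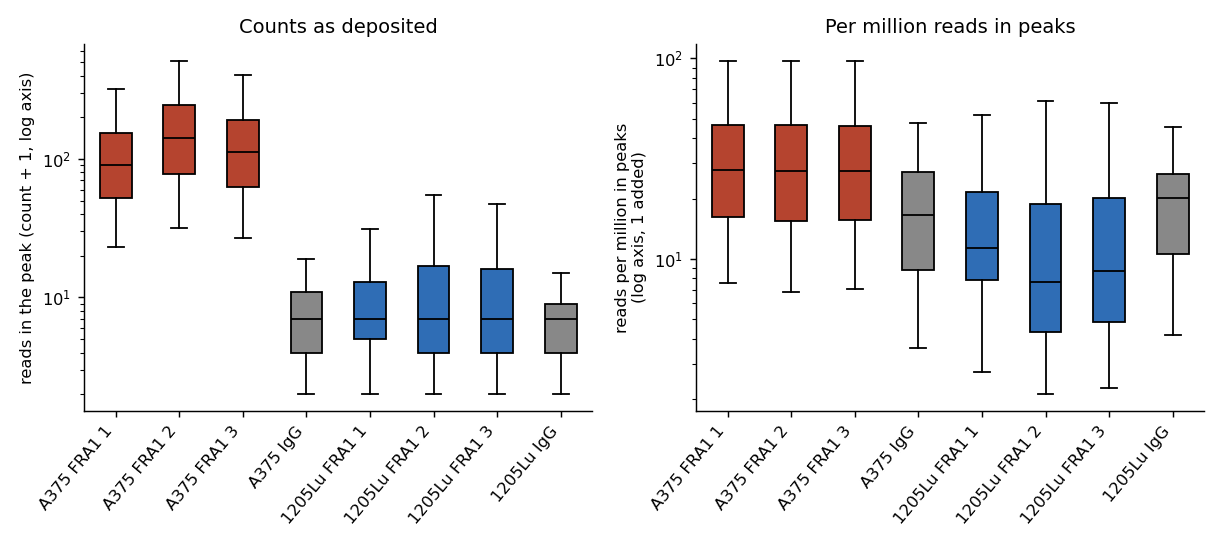
Reads in the 12121 peaks in each Cut&Run library, as deposited (left) and as CPM of the library's reads in peaks (right), on log axes with 1 added. Boxes span the quartiles, lines mark medians and whiskers the 5th to 95th percentiles; the left-hand gap between A375 FRA1 (medians of 90, 140 and 112 counts) and the other libraries (6) narrows in CPM, where A375 FRA1 lies at 26.3 to 26.8 and A375 IgG at 15.6.

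The choice, and with it the word "only", rests on unscaled counts, and scaling to the reads in peaks changed the number of peaks chosen. In CPM, here counts scaled to a common total of reads in peaks per library, the members had a median of 26.8, 26.3 and 26.3 in the A375 FRA1 libraries and 15.6 in A375 IgG. In 1205Lu cells the medians were 10.3, 6.69 and 7.68, with 19.1 in IgG. With every library scaled to the mean total, 166 peaks met the rule, 161 of them members. With the A375 FRA1 libraries thinned to the mean 1205Lu FRA1 total, 124 peaks met it. Both settings lower the A375 FRA1 counts against A375 IgG, so the IgG limit in A375 cells becomes harder to reach. These counts therefore do not show how much FRA1 the regions held in 1205Lu cells. The set is described here as regions with many FRA1 reads in A375 cells and few in 1205Lu cells. Absence of FRA1 from them in 1205Lu cells cannot be shown with the reads in peaks of these libraries.

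In the same CPM, A375 FRA1 signal in the members was higher than 1205Lu signal by a median of 1.27 on the log2 scale, with 90% of members between -0.75 and 3.35. The median was 0.22 over all peaks under 2000 bp, -0.75 in the peaks enriched in both lines and -4.14 in the 1205Lu only peaks. Every A375 FRA1 library lay above every 1205Lu FRA1 library in 8664 members (71.5%), where 38.4% of all consensus peaks did. The rule used this contrast, so nothing is read from that share. The ratio was above 0 in 10151 members (83.7%), so the others were no higher in A375 cells once scaled. 1205Lu FRA1 replicates 2 and 3 were close to counting noise, with a chi-square divided by its degrees of freedom of 1.07 against 1.83 and 2.18 for the other pairs of that line. They were averaged as 1 sample in this ratio. The A375 pairs gave 1.09 to 1.25, also near counting noise, but the A375 libraries were kept as separate samples in the ratio.

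Signal in 1205Lu cells varied among the members. All 3 1205Lu FRA1 libraries were at or below the IgG count in 3427 members (28.3%), and all had fewer than 10 counts in 6623 (54.6%). At the other end, 1673 members (13.8%) held at least 10 counts and at least 2 times IgG plus 1 in every 1205Lu FRA1 library, short of the limit of 4 times. Members near the A375 limit were common. There were 1993 members at 8 to under 9 times IgG plus 1, and 2536 other peaks at 7 to under 8 times. Members at 16 times or more numbered 3298, and 363 reached 32 times.

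Just inside the limit, a peak at the promoter of ATAD3A held 128, 195 and 191 A375 FRA1 counts with 15 in IgG. Just outside it, a peak at the promoter of ATF3, itself an AP-1 partner, held 191, 333 and 257 counts with 23 in IgG. The 1205Lu FRA1 libraries held 16, 20 and 22 counts in the ATAD3A peak and 39, 62 and 59 in the ATF3 peak. These neighbours across the limit have alike ratios of FRA1 to IgG.

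The strongest member lay between genes, 40420 bp from the nearest protein-coding start, that of PIK3R1, which encodes a regulatory subunit of PI3 kinase (chr5:68333482-68334986). It held 1283, 2037 and 1726 counts in A375 FRA1 libraries and 30 in A375 IgG. In 1205Lu cells it held 23, 42 and 36 counts, with 8 in IgG. Every A375 FRA1 library lay far above every 1205Lu library, and the 1205Lu FRA1 libraries lay above their IgG.

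The second was in an intron of CDH5, the endothelial cadherin gene (chr16:66381858-66383645), with 1050, 1765 and 1453 A375 FRA1 counts and 49 in IgG. Its 1205Lu FRA1 counts were 21, 31 and 29, with 10 in IgG. CDH5 mRNA was low in both lines, with 0.77, 0.87 and 0.95 CPM in A375 si-NT samples and 0.50, 0.49 and 0.25 CPM in 1205Lu si-NT samples. A strong peak inside a gene thus came with little mRNA of that gene.

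The third lay 46605 bp from the start of TGFB2, which encodes a TGFβ ligand (chr1:218479770-218481692). It held 1028, 1795 and 1450 A375 FRA1 counts with 40 in IgG, and 19, 37 and 25 1205Lu FRA1 counts with 5 in IgG. A second strong peak lay 272079 bp from the same start (chr1:218705440-218706971), with 946, 1328 and 1155 A375 FRA1 counts and 30 in IgG. There the 1205Lu FRA1 libraries held 5, 5 and 7 counts, against 6 in IgG. The far TGFB2 peak was thus at the IgG level in 1205Lu cells, while the nearer one was above it.

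Among members with fewer than 10 counts in every 1205Lu FRA1 library, the strongest was 64664 bp from the start of LINC02218 (chr5:17378390-17380303). It held 1088, 1691 and 1429 A375 FRA1 counts, and 6, 3 and 7 in 1205Lu cells, where IgG had 7. The next was 21148 bp from the start of CPA3, a mast cell carboxypeptidase gene (chr3:148901723-148903511), with 1006, 1724 and 1324 counts in A375 cells and 8, 9 and 6 in 1205Lu cells, where IgG had 8. In an intron of APBB2, a gene for an amyloid precursor binding protein, the counts were 979, 1469 and 1292 against 6, 2 and 7. In these peaks no 1205Lu FRA1 library stood clear of IgG.

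**Figure D2:**
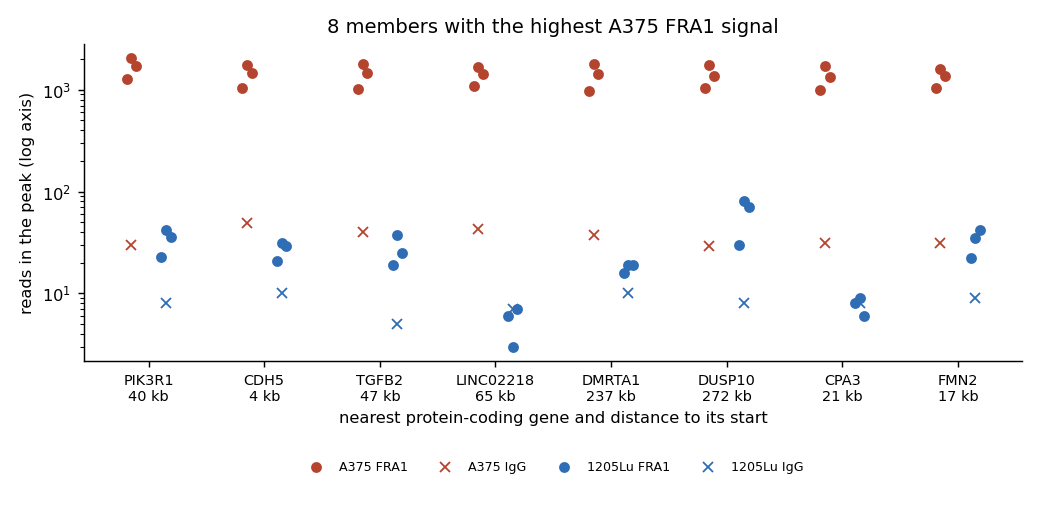
Reads in the 8 members with the highest mean A375 FRA1 signal, by library (log axis; circles, FRA1 libraries; crosses, IgG), labelled by the nearest protein-coding gene and the distance to its start. A375 FRA1 libraries hold 980 to 2037 reads in each peak, and 1205Lu FRA1 libraries 3 to 80.

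The AP-1 sequence was common in the members, a feature that the rule did not use. It occurred within 100 bp of the peak centre in 4341 members (35.8%, 95% Wilson interval 35.0 to 36.7). Windows of the same length placed 2000 bp away held it in 3.38% (3.08 to 3.72). Peaks enriched in both lines held it in 38.9% (36.6 to 41.3), against 29.1% (28.7 to 29.5) of all peaks under 2000 bp and 19.5% (17.5 to 21.7) of 1205Lu only peaks. The interval of the members lay above that of all peaks and of the 1205Lu only peaks, and it touched that of the peaks enriched in both lines. The intervals cover counting error only, and the cause of the differences was not tested.

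Over the whole peak, 75.6% of members held at least 1 AP-1 match, against 15.3% of stretches of the same length shifted by 5000 bp. Matches occurred at 1.16 per kb of member and 0.176 per kb of the shifted stretches. Peaks enriched in both lines held 1.32 per kb, 1205Lu only peaks 0.937 and all peaks under 2000 bp 0.987. The members with 3 or more matches numbered 745 (6.15%), and 2952 had none.

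**Figure D3:**
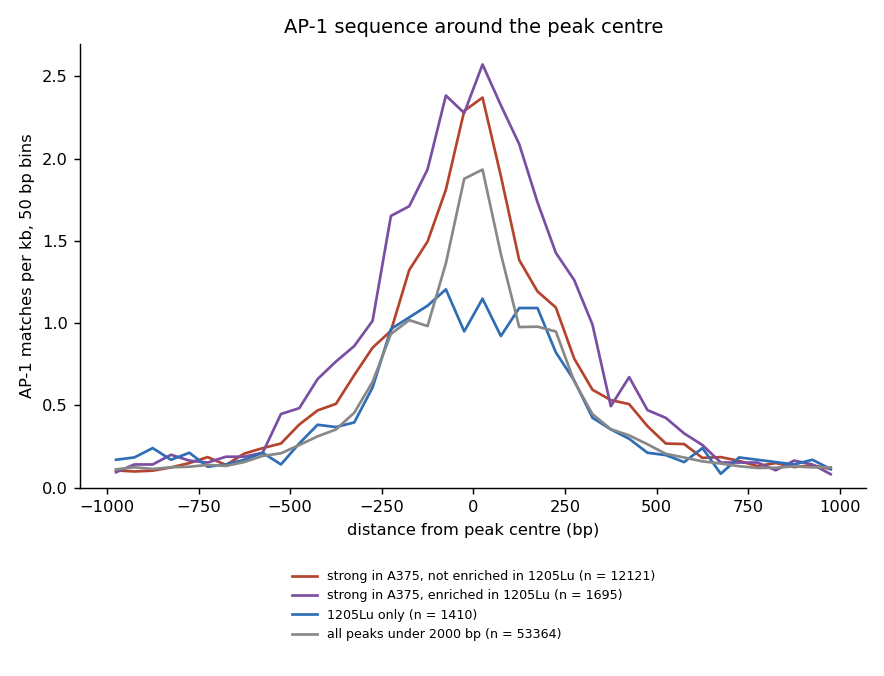
AP-1 matches per kb in 50 bp bins by distance from the peak centre, for 4 sets of peaks. In the 12121 members (red) the density rises from 0.106 per kb at the left edge to 2.37 at the centre, where the peaks enriched in both lines reach 2.57, while 1205Lu only peaks stay at 1.21 or below in every bin.

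Within the members, AP-1 near the centre did not follow the strength of the signal. The members were split into 4 equal groups by mean A375 FRA1 CPM, of 3030 or 3031 each. The share with AP-1 near the centre was 38.0% (36.3 to 39.8) in the weakest group, 40.5% and 36.3% in the next and 28.4% (26.8 to 30.05) in the strongest. Over the whole peak the share went the other way, from 70.04% in the weakest group to 80.9% in the strongest. Peak width moved with the groups, from a median of 665 bp to 1212.5 bp. Per kb, the density fell from 1.33 in the weakest to 1.08 in the strongest group. The strongest members were thus wider, and more of them held AP-1 somewhere but fewer held it at the centre. The part of width in this was not tested.

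Other sequences were searched the same way, on both strands. TEAD factors are partners of YAP and often share enhancers with AP-1, and their sequence GGAATGT was found in 6.76% of members (6.32 to 7.22) and in 2.698% of the windows 2000 bp away. That share was 5.67% (5.48 to 5.87) over all peaks under 2000 bp, 4.66% (3.76 to 5.77) in peaks enriched in both lines and 4.26% (3.32 to 5.44) in 1205Lu only peaks. The member interval lay above those of all peaks, of both-line peaks and of 1205Lu only peaks. TEAD matches were found in 6.22% of members with AP-1 near the centre and in 7.06% of members without it.

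SOX sequences (AACAATG or AACAAAG), read by SOX10 and related factors of the melanocyte lineage, were found in 8.23% of members (7.76 to 8.74) and in 8.76% of the windows away. The 1205Lu only peaks held them in 16.1% (14.3 to 18.1), against 9.15% away. RUNX sequences (TGTGGTT) occurred in 5.38% of members and 3.61% away, ETS sequences (CCGGAAG or CCGGAAA) in 1.87% and 0.866%, and the MITF E-box (TCACGTG or TCATGTG) in 4.74% and 3.61%. TFAP2 sequences (GCCNNNGGC) occurred in 6.25% and 3.89%. Over all peaks under 2000 bp the shares were 8.87% for SOX, 5.11% for RUNX, 2.77% for ETS, 4.63% for the E-box and 7.23% for TFAP2. Members thus held ETS and TFAP2 sequences less often than all peaks, and RUNX and E-box sequences about as often. The CRE TGACGTCA, bound by ATF and CREB dimers, was rare, at 0.289% of members. GC boxes (GGGCGG), a mark of many promoters, occurred in 5.42% of members, below the 8.999% of all peaks under 2000 bp. A match is a run of letters and not a bound site.

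Most members lay away from promoters. A protein-coding start lay within 3 kb of the centre of 1811 (14.9%, 14.3 to 15.6), while 49.2% were intergenic, 34.3% intronic and 1.59% exonic in the GENCODE v44 annotation of GRCh38. Over all peaks under 2000 bp, 21.8% were at promoters, as were 17.8% (16.1 to 19.7) of peaks enriched in both lines and 12.8% (11.2 to 14.7) of 1205Lu only peaks. The median distance to a start was 27964 bp in the members and 20944.5 bp over all those peaks. Promoter members held AP-1 near the centre in 29.5% (27.5 to 31.7), below the 37.5% (36.1 to 39.0) of intronic members. Members with at least 10 counts in every 1205Lu FRA1 library were at promoters in 25.3%, against 10.1% of those with fewer than 10 counts in each.

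The median width was 926 bp in the members, 706 bp over all peaks under 2000 bp, members included, and 1098 bp in the peaks enriched in both lines. Median GC content around the centre was 43.8%. By chromosome, over the autosomes and X, the share of peaks under 2000 bp that were members ran from 17.9% on chromosome 19 to 25.9% on chromosome 4. The IgG libraries themselves differed between the lines by chromosome. Their log2 ratio of A375 to 1205Lu CPM was 0.83 on X and 0.73 on chromosome 18, and -0.70 on chromosome 7. FRA1 ratios over all peaks under 2000 bp moved with them, at 0.88, 0.92 and -0.38, and the part of this in single peaks was not tested.

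Some members lay close together. Members within the stitching distance in common use for super-enhancers were joined into groups, and 9299 members stood alone, while 46 groups held 4 or more. The largest held 6 members, at RIPOR2 (chr6:24980530-25018158), at PTK2, which encodes focal adhesion kinase, and at FAM9B. At RIPOR2 the 6 members summed to 482 to 893 counts per A375 FRA1 library and 32 in IgG, with 14 to 19 in 1205Lu FRA1 libraries and 38 in IgG. A group of 5 lay at PLAU and CAMK2G, where the 1205Lu FRA1 libraries summed to 106 to 223 counts, above the 51 of IgG.

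To compare these regions with mRNA, each member was linked to the protein-coding gene with the nearest start, if within 50 kb. This linked 7567 members (62.4%) to 4822 genes, 4803 of which were in the count table, and 3221 genes had 1 member. Nearness does not show that a region acts on a gene. RNA-seq samples held 20573412 to 32518903 counts. Levels of mRNA are CPM of the TMM-scaled library. FOSL1, the silenced gene, had 413, 424 and 408 CPM in A375 si-NT samples, which dropped to 25.7, 25.7 and 26.0 CPM in the silenced samples. The 1205Lu si-NT samples had 492, 484 and 478 CPM of FOSL1 and the silenced samples 69.4, 70.9 and 65.1 CPM, so every si-FRA1 sample lay below every si-NT sample of its line. No member was linked to FOSL1. Calls needed a log2 fold change beyond 1 in either direction and a Benjamini-Hochberg adjusted p, over all genes, below 0.05 in edgeR's quasi-likelihood test.

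The markers of the melanocyte lineage given here differed between the lines or were low in both. TYRP1 and S100B were also on the list of markers and are not given. MITF was 54.6, 49.9 and 52.0 CPM in A375 and 3.63, 3.74 and 3.29 CPM in 1205Lu si-NT samples, and SOX10 was 43.5, 44.3 and 44.1 against 908, 902 and 931 CPM. PMEL, MLANA, TYR and DCT were under 1 CPM in every si-NT sample. Markers of keratinocytes, lymphocytes and endothelial cells (KRT5, KRT14, PTPRC, CD3E, PECAM1 and VWF) were under 1.5 CPM in every si-NT sample, as were COL1A2 and DCN of fibroblasts, while COL1A1 was 11.4, 10.8 and 11.3 CPM in A375 si-NT samples. In bulk RNA, fewer cells of a type and less RNA per cell cannot be told apart.

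Without silencing, the genes linked to members differed between the lines in both directions alike. Of 3976 linked genes tested, 886 (22.3%) were higher in A375 cells and 881 (22.2%) were lower. Over all 14288 protein-coding genes tested the shares were 18.4% higher and 20.2% lower. The median log2 fold change of A375 over 1205Lu was 0.03 for linked genes and 0.02 for all. The genes nearest to regions with more FRA1 reads in A375 cells thus had a median close to that of all genes. Their shares called were above those of all genes in both directions, and subsets of them differed, as given next.

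By number of members the shares went both ways. Genes with 1 member were higher in 20.1% and lower in 20.3%, those with 2 in 25.9% and 23.9%, those with 3 or 4 in 25.1% and 29.2%, and those with 5 or more in 33.3% and 23.8% (42 and 30 of 126). Genes with a member within 3 kb of a start were higher in 335 of 1421 (23.6%) and lower in 260 (18.3%). Genes linked to a member with fewer than 10 counts in every 1205Lu FRA1 library were higher in 588 of 2213 (26.6%) and lower in 440 (19.9%). For the members whose A375 CPM lay above the 1205Lu CPM in every library, a set formed after the data were seen, 765 of 2873 linked genes (26.6%) were higher and 558 (19.4%) lower. The peaks enriched in 1205Lu only gave 24 of 352 linked genes (6.82%) higher in A375 and 146 (41.5%) lower, where no member was linked. The matching set, genes linked to a member and to no 1205Lu only peak, was higher in 847 of 3634 (23.3%) and lower in 726 (19.98%). Genes with a peak but no member were higher in 16.4% and lower in 19.1%. These shares are descriptions and were not tested against each other.

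**Figure D4:**
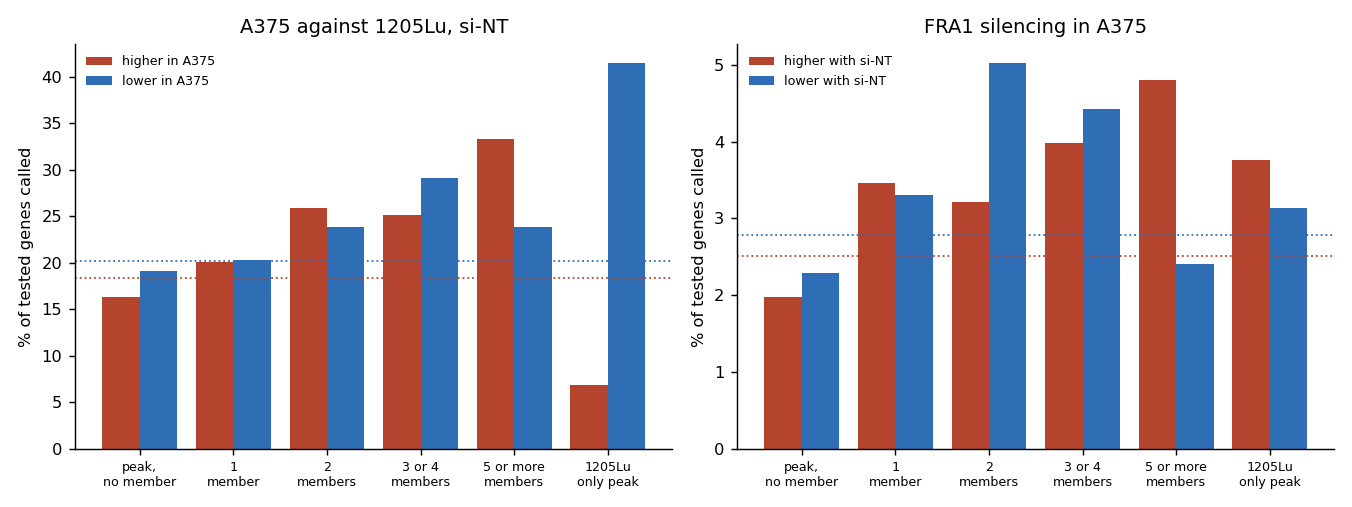
Share of tested protein-coding genes called in each direction (bars from 0), by number of linked members, between the lines with si-NT (left) and with FRA1 silencing in A375 cells (right); dotted lines give all protein-coding genes, 18.4% and 20.2% at left and 2.51% and 2.78% at right. At left, genes with 5 or more members reach 33.3% higher in A375, and genes with a 1205Lu only peak and no member reach 41.5% lower.

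By the rule for naming genes, the called linked genes with the largest change toward A375 were KISS1, C19orf33, HIST1H4F, VGLL2, MMP3 and MAGEA4. KISS1, which encodes kisspeptin and was named as a metastasis suppressor, had 60.2, 63.7 and 56.2 CPM in A375 si-NT samples and 0.033, 0 and 0 CPM in 1205Lu si-NT samples (adjusted p = 8.1e-21). Its member at the promoter, shown above, held 459, 670 and 522 A375 FRA1 counts and 20 in IgG. In 1205Lu cells the same peak held 7, 9 and 7 counts, with 12 in IgG. Gene and peak were both high in A375 cells and near background in 1205Lu cells.

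MMP3, a secreted protease of the extracellular matrix, had 29.2, 29.0 and 29.5 CPM in A375 and at most 0.045 CPM in 1205Lu si-NT samples (adjusted p = 5.1e-19). Its member upstream held 136, 213 and 202 A375 FRA1 counts against 5, 5 and 6 in 1205Lu cells. VGLL2, a cofactor of TEAD proteins, had 33.4, 36.5 and 36.999 CPM in A375 samples and at most 0.082 CPM in 1205Lu samples. MAGEA4, a cancer-testis antigen gene, had 125, 125 and 124 CPM against 0.27, 0.13 and 0.21 CPM. HIST1H4F and MAGEA4 belong to families of near-identical genes, so their counts are uncertain.

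The 6 linked genes with the largest change toward 1205Lu were GABBR2, MT1E, BAALC, AL096711.2, ST8SIA5 and FOXL2. GABBR2, a subunit of the GABA-B receptor, had 0.23, 0.16 and 0.12 CPM in A375 and 450, 451 and 460 CPM in 1205Lu si-NT samples (adjusted p = 3.7e-28). ST8SIA5, a sialyltransferase gene, had 0.90, 0.99 and 0.87 CPM in A375 samples and 441, 436 and 450 CPM in 1205Lu samples. MT1E belongs to the metallothionein family, whose members are alike in sequence. These genes were linked to members while their mRNA was low in A375 cells. Scaled to the reads in peaks, the log2 ratio of A375 to 1205Lu FRA1 signal in their members ran from -1.74 at BAALC to 1.66 at GABBR2. The BAALC member held 72, 98 and 79 A375 FRA1 counts and 36, 74 and 50 in 1205Lu cells.

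FRA1 silencing in A375 cells changed 281 of 3865 linked genes. With si-NT, 136 (3.52%) were higher and 145 (3.75%) lower than with si-FRA1, against 2.51% and 2.78% of all protein-coding genes. The median log2 fold change, si-NT over si-FRA1, was -0.03 for linked and -0.01 for all genes. By number of members the shares were 3.46% higher and 3.31% lower with 1 member, 3.22% and 5.02% with 2, 3.98% and 4.42% with 3 or 4, and 4.8% and 2.4% with 5 or more, the last from 6 and 3 of 125 genes. Genes with a peak but no member were called in 1.98% and 2.28%. Without the fold limit, 1167 of the 3865 linked genes were higher and 1313 lower with si-NT, against 3783 and 4062 of 13598 protein-coding genes.

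The linked genes that fell most with silencing in A375 cells were RAB15, NOLC1, ESM1, CPA4, RELL1 and TNFSF18. RAB15, a small GTPase of recycling endosomes, fell from 58.3, 60.5 and 57.8 to 9.43, 8.97 and 10.5 CPM (log2 fold change 2.62, standard error 0.06, adjusted p = 4.4e-20). The RAB15 promoter member was weak, with 26, 35 and 29 A375 FRA1 counts, and met the rule beside an IgG count of 0. NOLC1, a nucleolar phosphoprotein gene, fell from 255, 260 and 253 to 43.1, 43.7 and 44.4 CPM. Its promoter member held 576, 798 and 721 A375 FRA1 counts with 24 in IgG, and 43, 97 and 79 in 1205Lu cells with 16 in IgG. The NOLC1 peak was thus also above IgG in 1205Lu cells, where NOLC1 fell as well (log2 fold change 1.87, standard error 0.04, adjusted p = 2.2e-18).

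CPA4, a secreted carboxypeptidase gene, had 139, 151 and 141 CPM in A375 si-NT samples and 27.2, 33.3 and 33.3 CPM with si-FRA1 (log2 fold change 2.22, standard error 0.05, adjusted p = 4.9e-20). Its promoter member held 272, 392 and 350 A375 FRA1 counts with 16 in IgG, and 24, 47 and 44 in 1205Lu cells with 15 in IgG. In 1205Lu cells CPA4 was under 0.7 CPM in all samples. ESM1, which encodes a secreted proteoglycan, fell from 21.4, 21.1 and 18.3 to 3.52, 4.88 and 4.33 CPM in A375 cells. TNFSF18, a ligand of the TNF family, fell from 44.6, 43.6 and 42.9 to 10.6, 11.5 and 10.9 CPM and was at most 0.18 CPM in 1205Lu cells.

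The linked genes that rose most with silencing in A375 cells were MYOCD, CCDC141, FRY, LDB2, PCDH15 and PCDH7. MYOCD encodes myocardin, a coactivator of smooth muscle genes, and had 5 members. It rose from 1.2214, 1.0682 and 1.2015 to 11.5, 11.6 and 10.7 CPM (log2 fold change -3.27, standard error 0.15, adjusted p = 1.2e-14). FRY, a gene of cell shape control, rose from 5.93, 5.78 and 4.64 to 40.1, 37.6 and 40.4 CPM. Its promoter member held 152, 251 and 184 A375 FRA1 counts with 6 in IgG, and 7, 1 and 2 in 1205Lu cells with 3 in IgG. PCDH7 and PCDH15 encode protocadherins, and LDB2 a LIM domain binding protein. Members of strong signal were thus near genes that rose and near genes that fell.

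**Figure D5:**
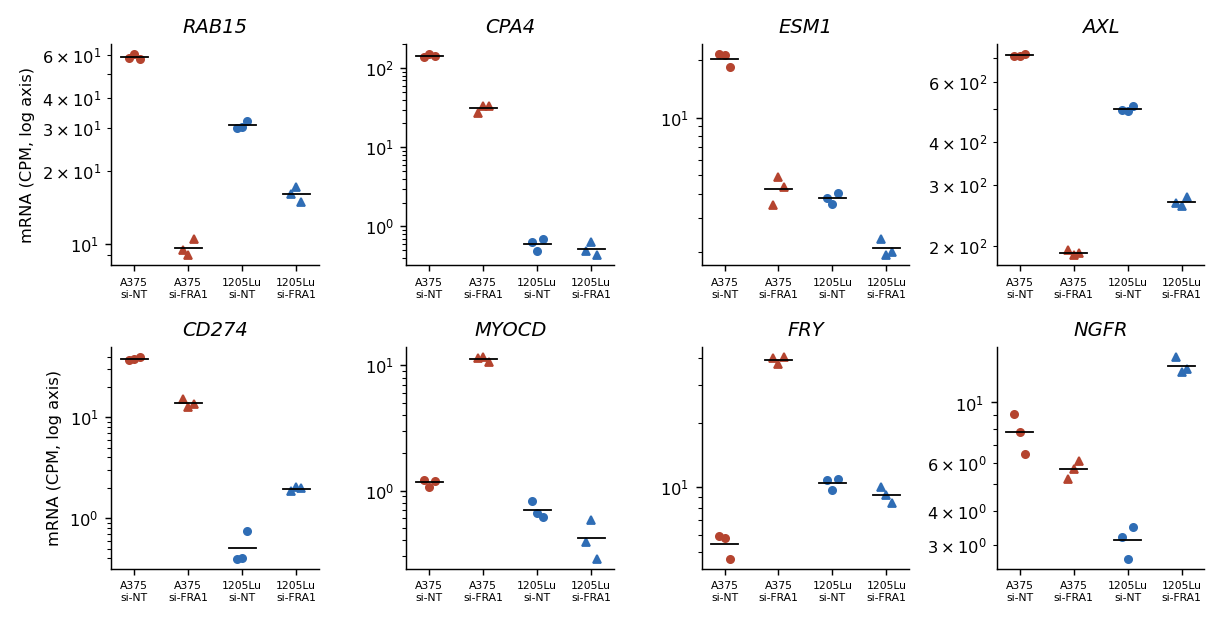
mRNA in CPM (log axes) of 8 genes linked to members, in the 3 samples of each group (points; lines are means). RAB15, CPA4, ESM1, AXL and CD274 lie lower with si-FRA1 than with si-NT in A375 cells, and MYOCD and FRY lie higher; in 1205Lu cells CD274 and NGFR lie higher with si-FRA1.

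In 1205Lu cells, FRA1 silencing changed 133 of 3765 genes linked to members. With si-NT, 83 (2.20%) were higher and 50 (1.33%) lower, against 1.86% and 1.11% of all protein-coding genes. The largest falls with silencing were of FSCN1, RELL1, ALK, CAP2, NOLC1 and ANAPC13. FSCN1, which encodes the actin-bundling protein fascin, fell from 481, 473 and 473 to 114, 123 and 120 CPM (log2 fold change 2.01, standard error 0.03, adjusted p = 2.1e-21), and in A375 cells from 111, 112 and 111 to 45.4, 46.7 and 44.9 CPM. Its promoter member held 145, 202 and 149 A375 FRA1 counts with 12 in IgG, and 97, 136 and 98 in 1205Lu cells with 26 in IgG. Scaled to the reads in peaks, that peak was lower in A375 cells, at -1.95 on the log2 scale. ALK, a receptor tyrosine kinase gene, fell from 65.6, 62.5 and 63.1 to 15.003, 18.035 and 15.496 CPM in 1205Lu cells and was under 0.5 CPM in A375 cells.

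The linked genes that rose most with silencing in 1205Lu cells were NGFR, C11orf96, IRF1, CDKN1C, GRIN2A and SYNPO. NGFR, a neurotrophin receptor of neural crest-like melanoma cells, rose from 3.19, 2.67 and 3.50 to 14.7, 13.0 and 13.2 CPM (log2 fold change -2.10, standard error 0.14, adjusted p = 1.5e-10). IRF1, an interferon-responsive transcription factor gene, rose from 8.85, 8.14 and 8.31 to 26.0, 25.1 and 25.6 CPM. CDKN1C, an inhibitor of cyclin-dependent kinases, rose from 5.65, 6.14 and 5.18 to 13.35, 18.75 and 16.02 CPM.

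The effect of silencing differed between the lines in 306 of 4101 linked genes tested with the interaction of line and silencing. The log2 fold change of si-NT over si-FRA1 was larger in A375 cells in 127 (3.10%) and smaller in 179 (4.36%), against 2.36% and 2.87% of all protein-coding genes. CD274, which encodes the checkpoint ligand PD-L1, fell with silencing in A375 cells, from 37.003, 37.982 and 39.361 to 15.1, 12.6 and 13.7 CPM. In 1205Lu cells it rose, from 0.40, 0.40 and 0.74 to 1.85, 2.05 and 2.01 CPM, and the difference was 3.41 (standard error 0.25, adjusted p = 4.9e-11). Its member, 3190 bp from the start, held 318, 539 and 409 A375 FRA1 counts with 20 in IgG, and 5, 6 and 7 in 1205Lu cells with 5 in IgG. In the other direction, MAP2, a neuronal microtubule protein gene, rose in A375 cells from 21.2, 20.3 and 20.5 to 86.5, 89.6 and 83.5 CPM while 1205Lu cells had 49.1, 46.4 and 48.2 CPM in si-NT samples and 34.5, 37.1 and 34.96 CPM in silenced samples, a change that was not called (difference -2.50, standard error 0.07, adjusted p = 4.4e-19).

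Genes with the most members were of several kinds. FOXP1, a forkhead repressor gene, had 17 members, FRMD4A 12, DST 11, and ADRA1B, KCNMA1, NEBL, PALLD and PRKCH 9 each. FOXP1 mRNA was 121, 112 and 116 CPM in A375 and 12.9, 10.9 and 13.9 CPM in 1205Lu si-NT samples (log2 fold change 3.13, standard error 0.06, adjusted p = 5.9e-20). FRMD4A went the other way, with 66.0, 64.1 and 59.2 against 816, 816 and 824 CPM. KCNMA1, a potassium channel gene, was also lower in A375 cells (log2 fold change -2.61, standard error 0.03, adjusted p = 2.7e-23) and fell with silencing there from 46.8, 46.9 and 46.7 to 21.2, 18.8 and 19.8 CPM. Many members near a gene did not go with 1 direction of expression.

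For 10 lists of genes of melanoma and AP-1 biology, 135 of 229 genes were linked to members. The counts below stand beside 18.4% higher and 20.2% lower in A375 cells over all protein-coding genes, and 22.3% and 22.2% over all linked genes. Among 18 linked receptor tyrosine kinases and ligands, with 53 members, 8 were higher and 4 lower in A375 cells (median log2 fold change 0.67). EGFR had 6 members and 221, 210 and 216 CPM in A375 against 71.7, 70.0 and 67.9 CPM in 1205Lu si-NT samples. MET, the receptor of hepatocyte growth factor, had 5 members and 301, 286 and 314 against 10.1, 13.1 and 11.6 CPM (log2 fold change 4.64, standard error 0.06, adjusted p = 5.6e-23). VEGFC, a lymphangiogenic ligand, had 2 members and was higher in A375 cells (log2 fold change 7.09, standard error 0.15, adjusted p = 2.3e-19). With silencing in A375 cells, where 2.51% of all protein-coding genes fell and 2.78% rose, 2 of 17 fell, the receptor AXL from 711, 713 and 721 to 195, 188 and 191 CPM and the ligand AREG from 5.70, 6.01 and 6.92 to 1.99, 1.38 and 1.94 CPM.

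Of 17 linked YAP and TEAD target genes, 6 were higher and 5 lower in A375 cells, against 18.4% and 20.2% of all protein-coding genes. With silencing there 4 fell and 0 rose (AXL, F3, TEAD3 and WWC1; edgeR, adjusted p under the threshold), against 2.51% and 2.78% of all. F3, which encodes tissue factor, fell from 25.15, 24.97 and 22.498 to 7.962, 6.804 and 8.338 CPM. TEAD3 fell from 27.78, 25.48 and 25.03 to 10.99, 9.851 and 11.698 CPM. In 1205Lu cells none of 16 was called. AXL belongs to this list, to the receptor list and to the dedifferentiated state list.

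Of 24 linked adhesion, matrix and protease genes, 8 were higher and 7 lower in A375 cells, where 18.4% and 20.2% of all protein-coding genes were, a background that also holds for the dedifferentiated and AP-1 lists. With silencing in A375 cells 0 of the 24 fell and 3 rose, where 2.51% of all protein-coding genes fell and 2.78% rose. COL5A1, a fibrillar collagen gene, rose from 7.74, 8.94 and 9.32 to 26.8, 22.2 and 22.4 CPM. PLAU, the urokinase gene, had 4 members and rose from 1.67, 1.66 and 1.95 to 4.84, 5.93 and 5.50 CPM. Of 17 linked genes of the dedifferentiated state, 7 were higher in A375 cells, among them CDH2, WNT5A and INHBA, and 8 were lower, among them TNC, FN1 and CD44. Of 10 linked AP-1 subunits and partners, FOSL2 and JUND were higher in A375 cells, and FOS, JUN and BACH1 were lower. JUN, the usual partner of FRA1, had 4 members and 74.5, 78.2 and 76.9 CPM in A375 against 174, 176 and 171 CPM in 1205Lu si-NT samples.

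Of 14 linked ERK feedback and output genes, 1 was higher in A375 cells and 6 were lower, with a median log2 fold change of -0.64. Over all protein-coding genes 18.4% were higher and 20.2% lower, with a median of 0.02, beside which the other lists here are also set. SPRY4, an inhibitor of receptor signalling, was lower (log2 fold change -3.90, standard error 0.03, adjusted p = 3.9e-26). Of 12 tested inflammatory and NF-kB genes, 5 were higher and 1 lower. Of 7 tested melanocyte lineage genes, 3 were higher, MITF, GPNMB and TFAP2A, and 2 were lower, SOX10 and ERBB3. With silencing in A375 cells 0 of 14 ERK genes and 0 of 10 AP-1 genes were called, where 2.51% of all protein-coding genes fell and 2.78% rose. In that comparison 0 of 12 inflammatory genes fell and 2 rose. Of 17 dedifferentiated state genes 1 fell and 2 rose, and of 8 tested melanocyte lineage genes 0 fell and 1 rose. MITF had 4 members, and the strongest, at a promoter, held 249, 424 and 333 A375 FRA1 counts with 14 in IgG, against 5, 2 and 4 in 1205Lu cells with 6 in IgG. Of 15 linked actin and motility genes, 3 were higher and 2 lower in A375 cells. With silencing there FSCN1 and MYH9 fell and 0 rose, where 2.51% of all protein-coding genes fell and 2.78% rose. Of 8 linked cell cycle regulators, 2 were higher and 3 lower in A375 cells, and with silencing CDK6 fell and CDKN1C rose. In A375 cells 1 of the 8 fell with silencing and 1 rose, beside the same silencing shares of all genes. CDK6 had 5 members and fell from 463, 477 and 466 to 232, 233 and 224 CPM in A375 cells (log2 fold change 1.03, standard error 0.02, adjusted p = 5.3e-21).

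Both calls together, 63 of 3818 linked genes tested in both comparisons were higher in A375 than in 1205Lu cells and also fell with silencing in A375 cells, against 114 of 13428 protein-coding genes. The comparisons share the A375 si-NT samples, so this count is given without a test.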

How the data were processed

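RNA-seq (12 samples) and Cut&Run (8 samples) were analysed. The deposited RNA-seq table holds expected counts per gene, which the authors estimated with RSEM 1.3.0 after STAR 2.7.7a alignment to GRCh38, and the values are whole numbers. The deposited Cut&Run table holds raw read counts per consensus peak, which the authors made with Bowtie2 2.4.1 and MACS2 2.1.1.20160309, without normalization or scaling to IgG. Versions are from the submitters' processing notes, and whether peaks were called per sample is not given in the sources used here.

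Peak positions came from the peak names and were read on GRCh38, the build that the study's methods name. All 54563 peaks lay inside its chromosomes, which alone does not show the build. Sequences were searched with Python 3.11.15 and pysam 0.24.0, and shares carry 95% Wilson intervals. Genes were fitted with edgeR 4.0.16 (filterByExpr, TMM, glmQLFit and glmQLFTest) in R 4.3.3 over all genes, with DESeq2 1.42.0 as an alternative, and protein-coding genes were counted. CPM values use the TMM library sizes. The step was tested on simulated data, where 200 of 200 changed genes were recovered in each comparison. False calls numbered 4 between the lines, 4 in A375 cells, 1 in 1205Lu cells and 4 for the interaction. The planted changes were all beyond the fold limit and in genes above a minimum level. Changes near the limit and genes with little mRNA were thus not covered. Total counts per sample and reads in peaks are in the report, and intervals cover counting error only.

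The members and gene lists were chosen with earlier results of these data known. Peaks were named by rank of A375 signal and nearness to the limit. Genes were named as the 6 largest called changes per direction with at least 100 counts on average and groups that did not overlap, as those with most members, and by list. AXL, CDK6 and FSCN1 are genes that the study chose on these samples.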

Additional observations from a re-analysis of the deposited data

Results flagged for a closer look

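Among the linked genes named for a silencing comparison or its interaction, 22 were called in the test of the difference itself (edgeR interaction, adjusted p under the threshold). CD274, VGLL2, NGFR, GRIN2A, BMP7, IL24, FRY, TFCP2, TTN, ZNF385D, GLIPR1 and MAP2 were named by that same test, so their calls follow from the choice. The others were named for a large change in a single line on the same samples. The count is thus a list and not a result about linked genes. Over all protein-coding genes 2.36% were called larger and 2.87% smaller in A375 cells. Values are the log2 fold change of si-NT over si-FRA1 in A375 cells minus that in 1205Lu cells.

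The difference was positive for CD274 (3.41), VGLL2 (2.91), NGFR (2.58), GRIN2A (2.48), BMP7 (2.41), IL24 (2.35), CPA4 (1.97), RAB15 (1.67), ESM1 (1.39), C11orf96 (1.24) and IRF1 (1.11). RAB15, ESM1 and CPA4 fell with silencing in A375 cells and were not called in 1205Lu cells, where the log2 fold changes were 0.96, 0.89 and 0.25. NGFR, GRIN2A, C11orf96 and IRF1 rose with silencing in 1205Lu cells and were not called in A375 cells.

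The difference was negative for MYOCD (-4.02), CCDC141 (-3.94), FRY (-3.04), TFCP2 (-2.91), TTN (-2.75), ZNF385D (-2.60), GLIPR1 (-2.54), MAP2 (-2.50), LDB2 (-1.87), PCDH7 (-1.86) and PCDH15 (-1.82). MYOCD, CCDC141, FRY, TTN, ZNF385D, MAP2, LDB2, PCDH7 and PCDH15 rose with silencing in A375 cells.

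Several of these differences rest on a line with little mRNA: VGLL2, TFCP2, GLIPR1, CPA4, MYOCD and PCDH15 were under 1 CPM in every 1205Lu sample and BMP7 and GRIN2A under 1 CPM in every A375 sample, so their values depend on the count offset of the fit. The groups of 3 samples were not searched for outlying samples. Explanations were not tested.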

How the results depend on the processing

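The choice of peaks rested on the unscaled counts and on the A375 limit. With 4 times IgG plus 1 in A375 cells 27898 peaks met the rule, with 16 times 3298, with every library scaled to the mean total 166, and with the A375 FRA1 libraries thinned to the mean 1205Lu total 124. Leaving out each FRA1 library in turn gave 11111 to 17014 peaks, the highest without A375 replicate 1.

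AP-1 was found in 20.5% of members within 50 bp of the centre, in 62.2% within 250 bp and in 75.6% anywhere in the peak, and in 34.6% of the members at 16 times IgG. Promoters held 8.33% of members with starts within 1 kb, 24.0% with starts of every gene type and 11.6% of the members at 16 times IgG. Chosen after seeing the data, the members with every A375 library above every 1205Lu library in CPM held AP-1 in 33.9% and were at promoters in 12.2%, and those kept with scaled libraries in 37.3% and 9.94%.

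Counts of linked genes are given as up and down, where up means higher in A375 cells, higher with si-NT or, for the interaction, a larger value in A375 cells. Between the lines they were 1743 and 1667 of 3976 tested without the fold limit, against 6056 and 5774 of 14288 protein-coding genes. With a start within 3 kb they were 335 and 260 of 1421, and for members at 16 times IgG 350 and 334 of 1413. Members kept with scaled libraries gave 14 and 19 of 68, and members above 1205Lu in CPM 558 down of 2873. In the same order of settings, silencing in A375 cells gave 1167 and 1313 of 3865, 50 and 51 of 1401, 57 and 61 of 1373, and 5 and 2 of 64. Silencing in 1205Lu cells gave 905 and 1086 of 3765, 30 and 15 of 1346, 37 and 23 of 1326, and 4 and 1 of 69. The interaction gave 945 and 934 of 4101, 38 and 56 of 1452, 50 and 78 of 1449, and 4 and 3 of 73. At 10 counts in every sample it gave 82 and 105 of 3340, where 3.74% of all protein-coding genes were called in either direction. Without the fold limit, all protein-coding genes gave 3783 and 4062 of 13598 in A375 cells and 3159 and 3290 of 13728 in 1205Lu cells. For the interaction they gave 2947 and 2804 of 14844. The other settings stand beside the shares of all protein-coding genes given above for each comparison. These settings count fewer or more genes by construction.

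With each sample left out, the counts between the lines were 901 to 914 up and 868 to 884 down. For silencing they were 129 to 142 and 140 to 152 in A375 cells and 64 to 83 and 50 to 56 in 1205Lu cells, and for the interaction 116 to 137 and 158 to 184. DESeq2 gave 878 and 882 of 3976, 134 and 143 of 3865, 69 and 48 of 3765, and 120 and 189 of 4101. In either direction it called 38.2%, 5.05%, 2.65% and 5.12% of all protein-coding genes. The median log2 fold change between the lines was 0.068 with upper-quartile scaling, 0.0384 with no filter, 0.112 with a start within 3 kb and 0.0155 within 100 kb, and 0.0341 to 0.0493 with each sample left out. The cause was not tested.

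With the replicate block the counts were 886 and 876 between the lines, 135 and 146 and 76 and 49 with silencing, and 124 and 173 for the interaction. That setting called 38.3%, 5.29%, 2.87% and 5.03% of all protein-coding genes in either direction, in the same order. Samples with the same number did not deviate together, with correlations from -0.0393 to 0.0188, so the numbers were not treated as paired.

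The reads in peaks of the 1205Lu libraries limit what can be said of weak signal there, and 1 IgG library per line gives no spread of the background.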
